A study of Mus musculus with 6 samples.

Results

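The population described here is the Ccr2 monocyte of a pooled mouse single-cell matrix, divided by whether its barcode held transcripts of the tdTomato lineage reporter. A barcode entered the monocyte gate when it had at least 8000 UMIs (unique molecular identifiers, 1 per captured transcript), at most 10% mitochondrial UMIs, at least 3 Ccr2 UMIs and at least 1 Csf1r UMI. It also had to hold at most 2 UMIs of the macrophage genes Mrc1 and Lyve1 together, and fewer than 5 per 10000 of the granule genes Ngp, Camp and Ltf. Of 39048 barcodes in the deposited single-cell matrix, 6935 passed. Labelled barcodes held 2 or more tdTomato UMIs and numbered 1186. Unlabelled barcodes held none and numbered 3746. The remaining 2003 had a single tdTomato UMI and were placed on neither side.

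The series profiled macrophage and monocyte lineage cells from whole embryos at E14.5 (E for embryonic day) by 10x Genomics 3' single-cell RNA sequencing, in a study of embryonic osteoclast precursors. The labels list 6 samples. A pair of embryo samples was Cx3cr1CreER; R26tdTomato with 4-hydroxytamoxifen given to the dam at E9.5, and another pair was Csf1r-Mer-iCre-Mer; Csf1r-EGFP; R26tdTomato with 4-hydroxytamoxifen at E8.5. The last pair was total bone marrow of 2-month-old wildtype C57BL/6 mice, which carry no reporter allele in their labels. In the reporter crosses, recombination depends on a tamoxifen-activated Cre driven from Cx3cr1 or Csf1r regulatory sequence, so a cell is marked only if it, or an ancestor, used that promoter while the drug was present, and a cell that escaped recombination looks like a cell of another origin. The barcodes of the matrix carry 4 suffixes that match no sample label. They are called libraries 1 to 4, and no library was assigned to a driver line, a drug day or an age.

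Monocytes are circulating phagocytes that carry the chemokine receptor Ccr2 and the growth factor receptor Csf1r, and they give rise to some macrophages, dendritic cells and osteoclasts. In the embryo, erythromyeloid progenitors of the yolk sac give rise to tissue macrophages directly and, after seeding the fetal liver, to monocytes, mast cells and other myeloid cells. A heritable reporter such as tdTomato, switched on in those progenitors by a pulse of drug, stays on in their descendants. Its transcript is counted like any other in single-cell data, and free transcripts in the suspension can be captured with cells that never made it.

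The gate held cells with the monocyte profile. Plac8, a gene high in monocytes and their precursors, stood at 1772 CPM (UMIs per 1000000 UMIs) in the gate, 549 in the other barcodes of at least 8000 UMIs and 68.4 in tissue macrophages. Ly6c2, the surface antigen of classical monocytes, stood at 269.8, 72.3 and 4.61 CPM in the same order. The macrophage gene Pf4 ran the other way, with 49.6 CPM in the gate against 3379 in tissue macrophages. Progenitor genes were also present, with the granule enzyme gene Mpo at 503 CPM, so the gate spans monocytes and cells close to their precursors. Libraries 1 and 2 differed from libraries 3 and 4 in the gate: Mpo was 195 and 207 CPM in the first pair and 801 and 741 in the second. Xist, the transcript of the inactive X chromosome, stood at 255 CPM labelled and 297 unlabelled in library 1 and 240.0 and 272 in library 2, and amounted to 0 labelled and 0 unlabelled UMIs in library 3 and to 0 and 1 in library 4. Of the gated barcodes, 274 shared their sequence with a barcode of another library.

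The reporter was sparse in monocytes, and its counts chose the sides, so its levels are a description without a test. The share of gated barcodes with 2 or more tdTomato UMIs was 13.1% in library 1 (exact Clopper-Pearson 95% interval 11.6 to 14.8), 13.5% in library 2 (11.9 to 15.3), 20.04% in library 3 (18.0 to 22.2) and 20.9% in library 4 (19.2 to 22.7). These intervals cover counting error only. Tissue macrophages, gated by Mrc1 with no Ccr2, held 27.9%, 38.2%, 51.7% and 52.7% in the same libraries. Every barcode was then thinned at random to 8000 UMIs, which removes differences in depth. The monocyte shares became 3.18%, 3.79%, 6.80% and 6.93%, whereas 34.9% of tissue macrophages over all libraries still held 2 or more. Mesenchymal barcodes, defined by collagen transcripts without Ptprc or Csf1r, served as background and held 1.89% after thinning (5 of 265, 0.615 to 4.35) with a median of 12356 UMIs against 20400 in the monocyte gate. The overall monocyte share after thinning was 5.25% (4.74 to 5.80), and the values of libraries 1 and 2 lay inside the mesenchymal interval. Without barcodes rich in mast cell transcripts, described below, the monocyte share after thinning was 3.08%, 3.80%, 5.69% and 6.19% in libraries 1 to 4. The mesenchymal share was then 1.15% over all libraries (3 of 261, 0.238 to 3.32), with 0 of 101, 2 of 41, 0 of 44 and 1 of 75 barcodes, so in library 2 it was 4.88% and above the monocyte value.

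**Figure D1:**
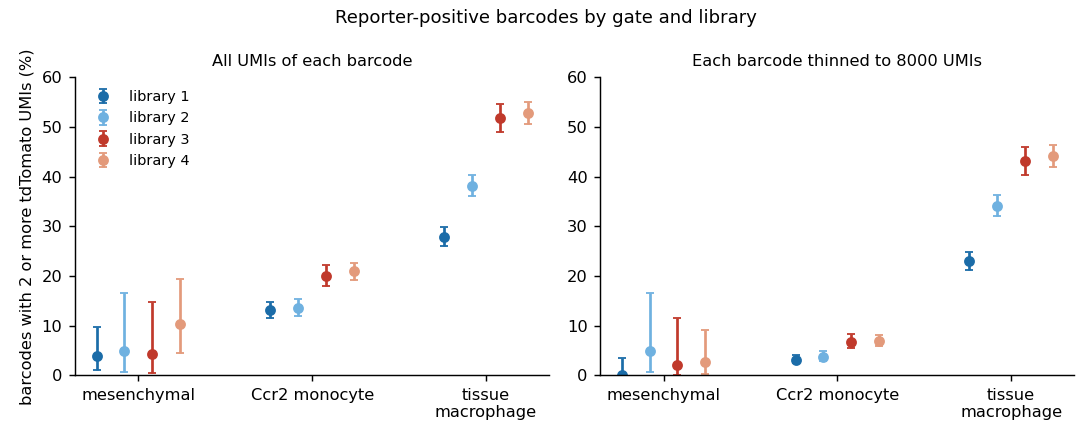
Percentage of barcodes with 2 or more tdTomato UMIs in the mesenchymal, Ccr2 monocyte and tissue macrophage gates, with all UMIs (left) and after thinning each barcode to 8000 UMIs (right). Points are single libraries and bars are exact 95% binomial intervals; monocytes fall from between 13.1% and 20.9% to between 3.18% and 6.93% after thinning, and macrophages stay at 23.0% or higher.

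In summed UMIs the same order held. Monocytes carried 28.4, 31.7, 45.9 and 49.1 tdTomato CPM in libraries 1 to 4, mesenchymal barcodes 19.6, 20.6, 33.1 and 37.6, and tissue macrophages 174, 267, 281 and 313. The monocyte level was thus nearer to the mesenchymal background than to macrophages in all 4 libraries. Among monocytes, 259 (3.73%) held 4 or more tdTomato UMIs, and 67 (0.966%) held 10 or more, against 34.0% and 19.4% of tissue macrophages. At the edge of the gate, barcodes with 2 Ccr2 UMIs, just outside, had 41.8 tdTomato CPM and barcodes with 3, just inside, had 36.1.

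The labelled side held more UMIs per barcode, here called depth. Median UMIs per barcode were 24945 labelled against 18595 unlabelled in library 1, 24186.5 against 18161 in library 2, 21867 against 18395 in library 3 and 25115 against 20527 in library 4. The labelled median was the higher one in all 4 libraries, and barcodes with a single tdTomato UMI lay between. Labelled and unlabelled tissue macrophages had medians of 14807.5 and 14924 UMIs, without such a gap. A deeper barcode has more chances to show 2 tdTomato UMIs, and the part of this in the results below was examined by repeating the comparison. Each labelled barcode was then set against the unlabelled barcode of the same library nearest in total UMIs. This matching also changed the unlabelled profile. The unlabelled sum of library 1 held 9069 CPM of macrophage maturation genes as gated and 5827 when matched. For cell cycle genes of the G2 and M phases it held 2139 and 2676 CPM. Whether UMI totals differed by capture or by the RNA content of the cells was not tested.

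**Figure D2:**
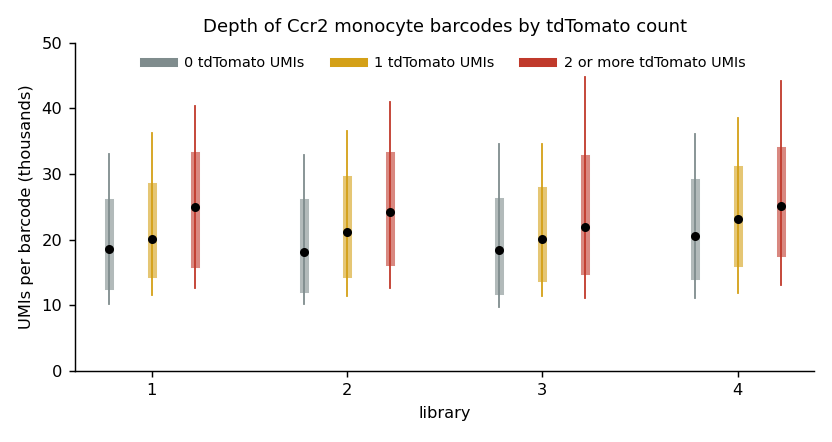
UMIs per barcode in the Ccr2 monocyte gate by library and tdTomato count. Black points are medians, thick bars the middle 50% of barcodes and thin lines the 10th to 90th percentile; the median rises with tdTomato count in each library, from 18595 to 24945 in library 1.

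Counts were summed per library and side, and edgeR's quasi-likelihood test with library as a block compared the 4 labelled with the 4 unlabelled sums. The p-values measure the spread of the labelled-unlabelled difference over these 4 libraries only. Of 11217 genes tested, 192 (1.71%) were higher and 286 (2.55%) lower on the labelled side at a Benjamini-Hochberg adjusted p below 0.05. The genes that chose the sides or the gate were left out of the test.

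The highest genes on the labelled side were those of mast cells, tissue granulocytes that store proteases and histamine. Cpa3, the mast cell carboxypeptidase, stood at 64.4 CPM labelled against 15.5 unlabelled in library 1, 74.5 against 41.1 in library 2, 522 against 20.8 in library 3 and 479 against 25.4 in library 4. It was higher in 4 of 4 libraries, by 3.13 on the log2 scale (SE 0.49, edgeR adjusted p = 0.00507), and by far the most in libraries 3 and 4. Cma1, a chymase, reached 103, 104, 537 and 510 CPM on the labelled side against 23.8, 63.0, 35.8 and 28.4 (log2 difference 2.83, SE 0.45, edgeR adjusted p = 0.00534). The tryptase gene Tpsb2 (log2 2.85, edgeR adjusted p = 0.00257) and Hdc, which encodes the enzyme that makes histamine (2.78, edgeR adjusted p = 0.000941), showed the same order. Of 8 genes in the mast cell and basophil list, 6 were tested and all 6 were higher: Cpa3, Cma1, Prss34, Mcpt4, Ms4a2 and Gata2, the last a transcription factor of the mast cell lineage. Their median log2 difference was 3.35 beside 0.00 over all genes tested. The list's summed level was 220, 195, 1161 and 1076 CPM on the labelled side and 42.5, 110.8, 62.2 and 59.2 on the unlabelled side, so the lowest labelled value lay above the highest unlabelled one. Kit, the stem cell factor receptor kept by mast cells and progenitors, was higher by 1.94 (edgeR adjusted p = 7.04e-05).

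**Figure D3:**
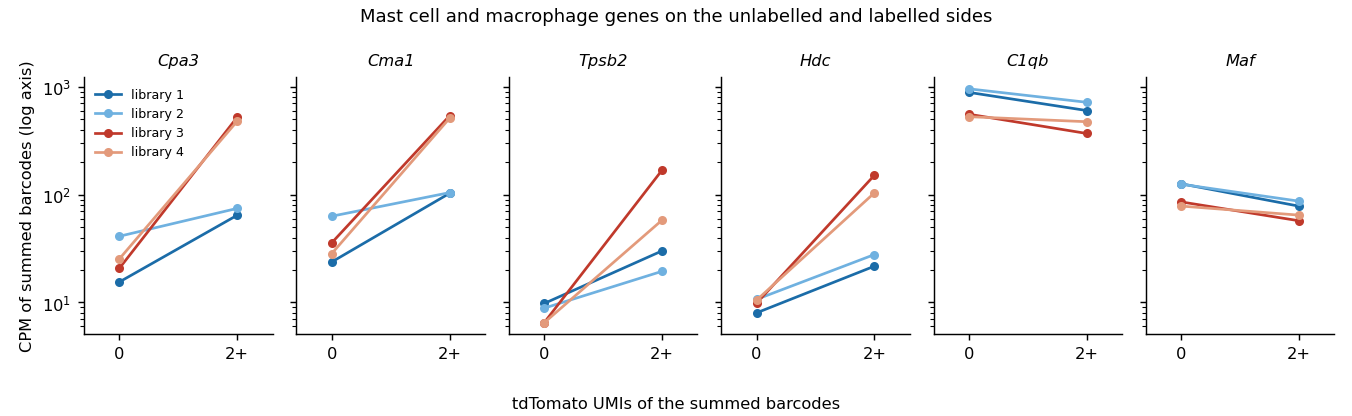
CPM of the summed unlabelled (0) and labelled (2+) barcodes on a log axis, 1 line per library, for 4 mast cell genes and the macrophage genes C1qb and Maf. The mast cell genes are higher on the labelled side in each library, most in libraries 3 and 4, and C1qb and Maf are lower on that side in each library.

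The promoters of Cpa3, Cma1 and Hdc in RefSeq's table (GRCm38.p6, 250 bases before to 50 after the gene start) are shown. These mast cell genes moved together, and the gene of their regulator Gata2 moved with them. Ms4a2 (log2 4.07), Gata2 (3.43), Mcpt4 (3.41) and Prss34 (3.29) had larger differences, and matches in their windows are given below. Capitals mark the words AGATAA or TGATAA, the core read by GATA factors, searched on both strands.
Cpa3, chr3:20242132-20242431, minus strand: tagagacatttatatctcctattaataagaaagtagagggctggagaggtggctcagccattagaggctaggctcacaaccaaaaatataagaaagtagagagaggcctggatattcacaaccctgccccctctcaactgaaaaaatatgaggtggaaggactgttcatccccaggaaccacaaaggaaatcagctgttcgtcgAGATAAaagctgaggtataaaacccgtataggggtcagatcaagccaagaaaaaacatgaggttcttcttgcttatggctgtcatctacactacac
Cma1, chr14:55944626-55944925, minus strand: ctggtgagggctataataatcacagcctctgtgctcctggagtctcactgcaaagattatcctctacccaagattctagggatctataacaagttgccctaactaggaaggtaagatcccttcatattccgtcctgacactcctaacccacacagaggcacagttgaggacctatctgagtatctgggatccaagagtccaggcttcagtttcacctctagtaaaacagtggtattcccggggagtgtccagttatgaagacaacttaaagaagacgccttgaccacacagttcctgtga
Hdc, chr2:126618629-126618928, minus strand: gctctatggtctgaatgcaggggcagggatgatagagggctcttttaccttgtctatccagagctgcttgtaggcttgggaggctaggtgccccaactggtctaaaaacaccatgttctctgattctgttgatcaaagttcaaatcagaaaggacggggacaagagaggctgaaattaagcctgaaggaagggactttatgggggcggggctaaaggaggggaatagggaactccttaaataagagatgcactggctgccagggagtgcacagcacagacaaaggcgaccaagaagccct
The word occurred once, 46 bases before the start, in Cpa3 and not in these windows of Cma1 and Hdc. Mcpt4 and Prss34 held 1 match each and Ms4a2 held 3, and Gata2 and Kit held none. Of 32851 promoter windows of the same length, 18.6% held at least 1. A match describes letters, not binding.

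The mast cell transcripts sat in few barcodes. Among labelled monocytes, 61 of 1186 (5.14%) held 20 or more UMIs of the mast cell list, at 3, 2, 20 and 36 barcodes in libraries 1 to 4, against 10 of 3746 unlabelled (0.267%). The difference in share was 1.22, 0.711, 6.93 and 7.25 percentage points, positive in 4 of 4 libraries, with a mean of 4.03 (SD 3.54, n = 4; exact sign-flip test, two-sided p = 0.125, the smallest this design allows). The 61 labelled barcodes had a median of 359 mast list UMIs, 8 tdTomato UMIs, 6 Ccr2 UMIs and 43 UMIs of the myeloid gene Lyz2, with a median total of 27463 UMIs. Labelled barcodes with fewer than 5 mast list UMIs had a median of 145 Lyz2 UMIs and 2 tdTomato UMIs. Pooled over libraries, the share rose with the label: 50 of the 259 barcodes with 4 or more tdTomato UMIs (19.3%) were rich in mast list transcripts. By library these were 1 of 24, 1 of 34, 19 of 74 and 29 of 127, so libraries 1 and 2 rest on 1 barcode each. Outside the gate, 1323 barcodes met the mast list threshold, and their tdTomato level was 104, 78.6, 462 and 503 CPM in libraries 1 to 4, far above that of gated monocytes in libraries 3 and 4. Whether a barcode held a mast cell, a precursor with both programmes, or 2 cells was not tested.

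When the 88 labelled and 48 unlabelled barcodes with 5 or more mast list UMIs were left out, an alternative chosen after seeing the data, 75 genes were higher (0.677%) and 135 lower (1.22%). Of the 192 genes first called higher, 72 kept that call, and of the 286 lower genes 131 kept it. Cpa3 then differed by -0.30 and Hdc by -0.25 on the log2 scale, without passing the edgeR test. The value for Cpa3 cannot be judged here, because Cpa3 is on the list by which barcodes were left out. Leaving out library 4 alone reduced the first counts to 98 higher and 157 lower, and all 6 mast list members were still called higher.

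Genes outside the mast cell programme that were higher with the label included Sparc, a secreted matrix protein. It stood at 21.0, 53.0, 36.9 and 29.4 CPM labelled against 11.2, 12.5, 12.6 and 11.7 unlabelled, without overlap between the sides (log2 difference 1.49, SE 0.14, edgeR adjusted p = 0.000282). Sparc is also on the mesenchymal list, of which 7 genes were tested and Sparc alone was called. Nedd4, a ubiquitin ligase (log2 0.84), and Ptprcap, a partner of the phosphatase CD45 (0.68), were called as well. With mast-gene barcodes left out and depth matched, Nedd4 differed by 0.31 and Ptprcap by -0.21, and neither passed. Of 12 genes of the G2 and M phases of the cell cycle, 7 were higher and none lower, with a median of 0.18. Over all genes tested, 1.71% were higher. Ube2c, a ubiquitin carrier needed for exit from mitosis, stood at 457, 472, 444 and 410 CPM labelled against 346, 351, 379 and 354 unlabelled (log2 0.31, edgeR adjusted p = 0.00236). None of 13 S phase genes passed in either direction. Under equal depth none of the 12 G2 and M genes passed, and Ube2c differed by 0.04.

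The genes lower on the labelled side included several of mature phagocytes. C1qb, a subunit of the complement starter C1q, stood at 601, 716, 368 and 473 CPM labelled against 885, 955, 555 and 527 unlabelled, lower in 4 of 4 libraries although the ranges of the sides overlapped (log2 difference -0.44, SE 0.06, edgeR adjusted p = 0.00173). Maf, a transcription factor of macrophages, was at 78.0, 86.8, 57.2 and 64.5 CPM against 126, 125, 85.5 and 78.2 (-0.52, edgeR adjusted p = 0.000839). The inhibitory receptor gene Pilra (-0.55), the complement receptor gene C3ar1 (-0.47), the Fc receptor gene Fcgr4 (-0.47), the endocytic adaptor gene Dab2 (-0.46) and the lectin receptor gene Clec4a1 (-0.46) were also lower. Of 19 macrophage maturation genes tested, 7 were lower and 2, Gas6 and Cd63, higher. Over all genes tested, 2.55% were lower and 1.71% higher. Of 19 monocyte identity genes, 9 were lower, among them Ms4a6c (-0.21) and F13a1 (-0.30), and of 12 interferon-induced genes 5 were lower, Ifit3 by -0.48. Ly6c2 and Plac8 did not pass, at -0.06 and 0.00. Tnfrsf11a, which encodes RANK, the receptor through which osteoclast precursors receive their differentiation signal, was at 11.3, 11.6, 8.59 and 9.99 CPM labelled against 16.3, 14.4, 11.9 and 11.9 (-0.39, edgeR adjusted p = 0.032).

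Few of these lower calls remained at equal depth. With depth-matched sides, median UMIs were 24945 on both sides of library 1 and 25115 against 25131.5 in library 4. Of 10233 genes tested, 115 were higher (1.12%) and 10 lower (0.0977%). Of the 286 genes first called lower, 4 kept the call and 11 were called higher. Maf differed by -0.01, Fcgr4 by 0.00, Tnfrsf11a by 0.02 and C1qb by 0.11, none passing. Apoe, the lipid carrier gene of macrophages, changed from -0.29 (edgeR adjusted p = 0.0212) to 0.32 (0.00123). None of 12 interferon-induced genes passed, no monocyte identity gene was lower, and 1, S100a6, was higher. The mast cell genes kept their direction at equal depth, with Cpa3 at 4.48 and Cma1 at 4.15. Without library 4 the matched sides gave 45 higher genes and 2 lower, and without library 1 they gave 193 and 24.

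Actb, which encodes the cytoskeletal protein beta-actin, was lower as gated, at equal depth and at the stricter label described below. Before matching it stood at 7523, 8289, 6974 and 8535 CPM labelled against 9523, 10204, 8403 and 10374 unlabelled (log2 -0.31, SE 0.01, edgeR adjusted p = 5.48e-06). At equal depth the difference was -0.11 (0.000452). With the label called after thinning it was 0.0037 and did not pass. Rab32, a GTPase of lysosome-related organelles, was lower by 0.23 before and 0.22 after matching.

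**Figure D4:**
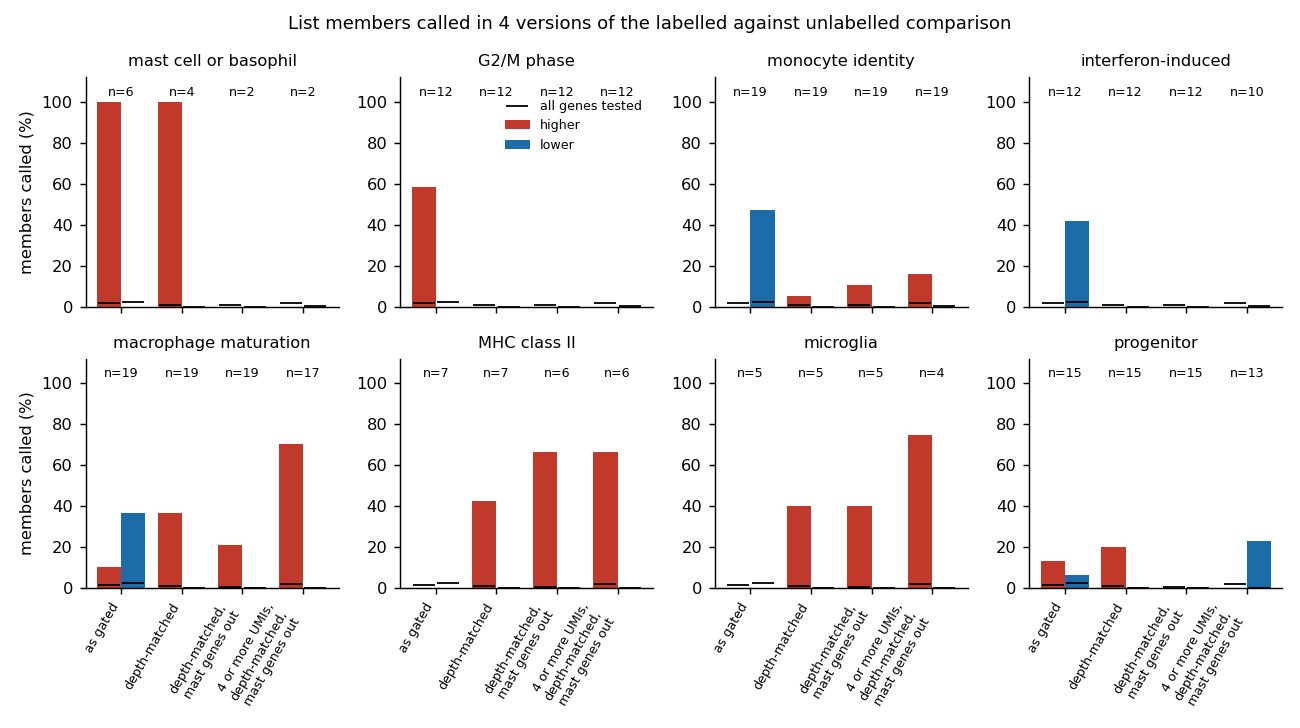
Percentage of tested list members called higher (red) or lower (blue) on the labelled side in 4 versions of the comparison; black marks give the same percentage over all genes tested and n the members tested. Lower calls among monocyte, interferon and macrophage genes appear as gated and not with matched depth, and MHC class II and microglia genes are called higher in the matched versions.

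With mast-gene barcodes left out and depth matched together, 77 genes were higher (0.763%) and 5 lower (0.0495%) of 10096. Sparc remained, at 19.5, 53.6, 42.2 and 32.6 CPM labelled against 9.78, 26.01, 8.63 and 5.92 (log2 1.69, SE 0.19, edgeR adjusted p = 0.000235). Fcrls, an Fc receptor-like gene of microglia and related macrophages, stood at 60.9, 106, 68.6 and 57.0 CPM against 50.8, 52.6, 38.8 and 31.4 (0.76, edgeR adjusted p = 0.000351). Antigen presentation genes were higher in the matched comparison, where 4 of 6 MHC class II genes tested passed, against 0 of 7 without matching (median -0.06). At matched depth H2-Eb1 stood at 102, 29.8, 105 and 55.7 CPM against 69.3, 27.1, 61.3 and 31.7 (0.65, edgeR adjusted p = 0.000373). Ccl4, a chemokine, was higher by 0.52 and Socs3, an inhibitor of cytokine signalling, by 0.47.

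Erythroid transcripts moved with the label in this version. Of 7 erythroid genes tested, 4 were higher, beside 0.763% of all genes tested. The list of 12 summed to 732, 1487, 2910.3 and 2596 CPM labelled against 728, 226, 1437 and 1084 unlabelled. Hbb-bs, an adult beta-globin gene, was higher by 1.14 (edgeR adjusted p = 0.0239). Car2, carbonic anhydrase of red cells and osteoclasts, stood at 4.89, 2.76, 183 and 79.6 CPM labelled against 4.37, 1.48, 15.7 and 8.61 (3.12, edgeR adjusted p = 1.6e-05), a difference carried by libraries 3 and 4. The part of red cell transcripts in Car2 was not tested. Summed mesenchymal list levels were 38.0, 56.9, 47.9 and 54.3 CPM against 32.7, 147, 12.8 and 16.6, without a common direction.

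A stricter label was compared because 2 UMIs overlap the background. Among mast-free barcodes, 202 held 4 or more tdTomato UMIs, at 23, 33, 52 and 94 per library. Set against depth-matched unlabelled barcodes, a choice made after seeing the data, they had 140 genes higher (1.91%) and 21 lower (0.287%) of 7319 tested. The leading genes were those of microglia, the macrophages of the brain. Sparc stood at 115, 141, 134 and 69.3 CPM labelled against 1.60, 4.34, 7.92 and 4.56 unlabelled (log2 4.38, SE 0.21, edgeR adjusted p = 8.7e-09). Crybb1, a crystallin gene used in embryonic microglia, was at 67.1, 89.0, 24.6 and 21.9 CPM against 6.39, 1.08, 2.38 and 2.07 (3.96, edgeR adjusted p = 4.82e-06). P2ry12, the microglial ADP receptor gene, was at 44.7, 123, 53.1 and 28.3 CPM against 14.4, 11.9, 3.17 and 8.70 (2.61, edgeR adjusted p = 7.1e-05). For each of these genes the lowest labelled value lay above the highest unlabelled one. Fcrls (2.49), Olfml3 (2.40) and Serpine2, a protease inhibitor gene (4.23), followed the same order, as did Spp1, the osteopontin gene (3.15), in each library although its sides overlapped.

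Macrophage genes were higher at this label. Of 17 macrophage maturation genes tested, 12 were higher and none lower, with a median of 0.95 beside 0.00 over all genes tested, of which 1.91% were higher. Without depth matching 5 of 19 were higher, with a median of 0.42, and C1qa (0.94) and C1qc (0.64) were among them. Apoe (0.31) and Trem2, a lipid receptor gene (0.42), did not pass without matching. With depth matched, C1qa (1.26), C1qc (1.24), Apoe (0.99) and Trem2 (0.73) were among the 12 higher genes. H2-Aa and H2-Ab1 were each higher by 1.85, and Cd74, the invariant chain gene, by 1.51. These MHC class II differences depended on the matched unlabelled barcodes. Without matching, none of 7 genes of that list passed, with a median of 0.13, and H2-Aa differed by 0.19, H2-Ab1 by 0.11 and Cd74 by 0.24. The summed list stood at 1781, 1077, 2146 and 978 CPM labelled against 326, 438, 1279.8 and 480 in the matched unlabelled barcodes, and at 1483, 1096, 1357 and 1090.4 in all unlabelled barcodes as gated. Cx3cr1, the fractalkine receptor gene whose locus drives 1 of the Cre lines, was higher by 0.64 (SE 0.12, edgeR adjusted p = 0.00734) and by 0.33 without matching, which did not pass (edgeR adjusted p = 0.428). With 2 UMIs as the label and no matching it stood at 77.4, 95.7, 118 and 129.5 CPM labelled against 116, 105, 129 and 119.6 and did not pass (-0.17, edgeR adjusted p = 0.306).

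Transcripts of other cell types also moved with the strict label. Of 4 erythroid genes tested, 3 were higher, and the list summed to 608, 284, 7041 and 1861 CPM labelled against 698, 199.5, 322 and 501 unlabelled, higher in libraries 2 to 4 and by far the most in library 3. S100a8, a calcium-binding protein gene of neutrophils and monocytes, was higher by 2.06 (edgeR adjusted p = 0.00813), the only 1 of 4 neutrophil genes tested to pass, and by 0.10 without matching, which did not pass. The neutrophil list summed to 3924, 1842, 2525 and 4757 CPM labelled against 396, 271, 3033 and 1035 unlabelled, higher in libraries 1, 2 and 4. Of the mast cell list 2 genes were tested and neither passed. That list cannot be judged here, because barcodes with 5 or more of its UMIs had been left out beforehand. The part of transcripts of other cell types in the other differences was not tested.

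A few progenitor genes were lower at the strict label with depth matched. Cd34, a surface sialomucin of progenitors, stood at 177, 167, 129 and 117 CPM labelled against 294, 295, 186 and 185 unlabelled, without overlap (log2 -0.66, SE 0.09, edgeR adjusted p = 0.000484). Elane, the neutrophil elastase gene, was at 51.1, 103, 95.4 and 132 CPM against 83.0, 184, 314 and 156 (-0.85, edgeR adjusted p = 0.0154), and Mpo was lower by 0.63 (0.0442). Of 13 progenitor genes tested, these 3 passed, beside 0.287% lower over all genes tested. The rest of the 21 lower genes at this label were outside that list. The transcriptional inhibitors Id1 (-0.78) and Id3 (-0.63) and the membrane protein gene Ifitm1 (-0.74) were lower too. Without depth matching Cd34 was lower by 0.39 (edgeR adjusted p = 0.0477), whereas Elane stood at 0.03 and Mpo at 0.33, so the direction of these last 2 depended on the matching. Leaving out library 4 reduced the counts at the strict label to 49 higher and 6 lower.

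**Figure D5:**
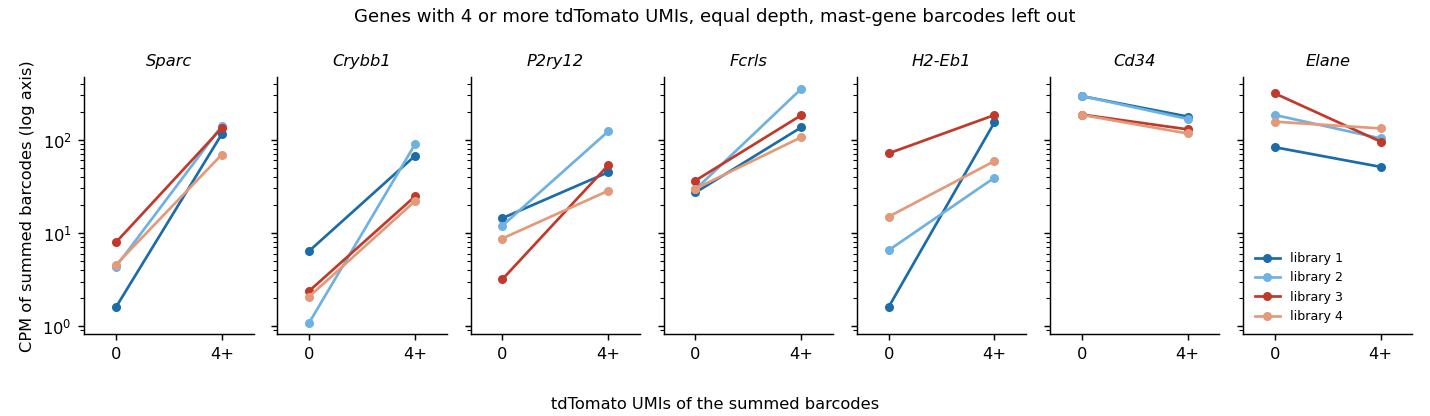
CPM of summed barcodes with 0 and with 4 or more tdTomato UMIs on a log axis, 1 line per library, after depth matching and without mast-gene barcodes. Sparc, Crybb1, P2ry12, Fcrls and H2-Eb1 are higher on the labelled side in each library, and Cd34 and Elane are lower in each library.

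Microglial transcripts were unevenly spread over the barcodes. Of the 202 strictly labelled barcodes, 32 held 20 or more UMIs of the microglia list (15.8%, exact 95% interval 11.1 to 21.6). The unlabelled count was 71 of 3698 (1.92%, 1.502 to 2.42). Both intervals pool barcodes over libraries and cover counting error only. By library the shares were 17.4%, 30.3%, 15.4% and 10.6% against 2.06%, 3.25%, 1.11% and 1.22%. After thinning to 8000 UMIs, 23.8% against 9.19% held 5 or more. By library these thinned shares were 17.4%, 48.5%, 21.2% and 18.1% against 11.5%, 12.3%, 5.39% and 6.94%. The interval for library 1, 4.95 to 38.8 from 4 of 23 barcodes, held the unlabelled share. The 32 barcodes had median counts of 9 Ccr2 UMIs and 7 tdTomato UMIs. Ly6c2 was 117 CPM in the 32 and 309 in the other 170. Without barcodes of 20 or more microglia list UMIs on either side, 5 genes were higher and 1 lower of 6546 tested, with 595 at an unadjusted p below 0.05. P2ry12 then differed by 0.27 and C1qa by 0.41, whereas the list medians stayed near their earlier size for MHC class II genes (1.37, from 1.68), erythroid genes (1.92, from 1.91) and neutrophil genes (1.96, from 1.53), with no list member of these 3 passing. The higher genes were S100a6 (1.04), Lgals3, Socs3, Rgcc and Ms4a7, and Cd34 (-0.65) was the lower one. This version holds the fewest barcodes and was chosen after the values were seen.

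The same label was compared in tissue macrophages, where many barcodes carry the reporter. There 843 of 12026 genes were higher (7.01%) and 976 lower (8.12%). The mast cell genes were higher with the label in both populations. Cpa3 was higher by 3.17 in labelled macrophages beside 3.13 in monocytes (interaction -0.02, edgeR adjusted p = 0.998), and Cma1 by 2.87 beside 2.83. The monocyte difference was more positive for 490 genes (3.92%) and more negative for 381 (3.05%) of 12497. Without library 1 these counts were 21 and 95, and without library 2 they were 35 and 147. For Maf the interaction was -0.46 (edgeR adjusted p = 0.0036), for C1qb -0.43 (0.00735) and for Ifi27l2a, an interferon-induced gene, -1.001 (0.00133). With mast-gene barcodes left out and depth matched, 181 genes were more positive (1.52%) and 49 more negative (0.412%). In that version the interaction was 0.00 for Maf and 0.07 for C1qb, neither passing, while Ifi27l2a kept -0.64 (edgeR adjusted p = 0.00843). Crybb1, higher by 1.02 in labelled monocytes and 0.03 in labelled macrophages, differed between the populations before matching (edgeR adjusted p = 0.00103) and after it (2.64e-05).

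Several groups gave no call before or after depth matching. None of 13 S phase genes, 13 mitochondrial genes or 5 sex-linked genes passed in the first comparison, and none did at equal depth either. Ddx3y, a Y-linked helicase gene, stood at 16.2, 16.9, 41.2 and 38.9 CPM labelled against 12.1, 14.9, 36.2 and 34.5 (log2 0.20, edgeR adjusted p = 0.106). Of the fetal programme genes, Hmga2, a chromatin protein gene, was lower at equal depth (-0.58, edgeR adjusted p = 0.0111) and stood at 0.12 before. The Rosa26 transcript gene and its neighbours Thumpd3 and Setd5, listed because the reporter sits in that locus, did not pass in the first comparison.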

How the data were processed

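Count values were deposited by the authors as 1 sparse matrix of UMI counts per gene and barcode; per the file headers it was written by Cell Ranger 3.0.1, whereas version 2.1.1 and the mm10 build stand in the submitters' processing notes. All 4 barcode suffixes were used as libraries; samples whose library the labels do not give were not compared by group, and the marrow samples were not analysed here as a group. Counts were summed per library and side (labelled sums 5504968 to 12609486 UMIs, unlabelled 14931577 to 24669470) and fitted in edgeR 4.0.16 (R 4.3.3; TMM, filterByExpr, library block, quasi-likelihood test, Benjamini-Hochberg), with DESeq2 1.42.0 as an alternative. CPM values are raw sums over totals. Shared barcode sequences were kept, and no doublet caller was run. Labelled and unlabelled barcodes were matched on total UMIs in a fixed order, and thinning used a fixed seed (scipy). The fits were tested on simulated data.

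Genes were picked by a rule: among called genes with mean CPM of at least 20 and the same direction in 4 libraries, the 15 highest and 15 lowest differences, leaving out predicted, ribosomal and mitochondrial genes. Called or abundant list members, Cx3cr1, Tnfrsf11a and the sex-linked genes were added. Only part of the genes so picked is described. Left out were, among others, Bcl2a1a (log2 -0.62), the lowest gene of the first comparison by this rule, and Mns1 (1.20) among its higher genes. At the strict label, lower genes left out included Eif4a1 (-0.25), Hsp90ab1 (-0.23), Ldha (-0.23) and Ptma (-0.16). The same rule was applied to the matched and strict versions. The members and lists were chosen with earlier results of these data known. Nothing in the labels says whether libraries come from separate litters. A gene of the microglia list is not reported here.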

Additional observations from a re-analysis of the deposited data

Results flagged for a closer look

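The difference between labelled and unlabelled monocytes was not the same as that between labelled and unlabelled tissue macrophages for 13 of the genes described above that were examined for it, by edgeR's test of the interaction before depth matching. It was more negative in monocytes for Pilra by -0.50, Maf by -0.46, C3ar1 by -0.33, Fcgr4 by -0.43, Dab2 by -0.37, C1qb by -0.43, Apoe by -0.44, Actb by -0.16, Ifit3 by -0.81 and Ifi27l2a by -1.001 on the log2 scale. It was more positive for the mitotic gene Ube2c by 0.34 and for the microglial gene Crybb1 by 0.99. For Xist the interaction was -0.57. With mast-gene barcodes left out and depth matched, Ifi27l2a (-0.64), Ube2c (0.25), Xist (-0.53) and Crybb1 kept an adjusted p below 0.05 and the other 9 did not. Xist is read in libraries 1 and 2 and is absent or at 1 UMI in libraries 3 and 4.

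For Ddx3y, the log2 difference of CPM + 1 was 0.40 in library 1 and lay between 0.17 and 0.18 in the others, a gap beyond Dixon's critical value for 4 values. Among 37 such groups of 4 libraries examined, chance flags about 1 in 20.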

How the results depend on the processing

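The first comparison, with 192 genes higher and 286 lower on the labelled side, stayed within 1.5 times of both counts when the mitochondrial limit was 5%, when shared barcode sequences were left out, with Ccr2 at 1 or more, and with a mean CPM filter of 20. DESeq2 called 102 higher and 164 lower, no filter on low counts gave 512 higher and 642 lower and depth matching gave 115 higher and 10 lower. A label of 1 UMI gave 95 higher and 176 lower and a label of 4 UMIs gave 271 higher and 142 lower. A label called after thinning, as 1 or more against 0 UMIs left, gave 230 higher and 92 lower. Its labelled side was the shallower one. Leaving out barcodes above 40000 UMIs gave 76 higher and 27 lower, Ccr2 at 6 or more gave 126 higher and 248 lower and a label of 2 per 10000 UMIs gave 572 higher and 531 lower. That last label reversed the depth gap, with labelled medians of 12625, 13702, 13932 and 15761 UMIs against 18595, 18161, 18395 and 20527 unlabelled. It left 24, 30, 68 and 117 labelled barcodes in libraries 1 to 4. 4 UMIs with depth matching gave 179 higher and 30 lower, leaving out mast-gene barcodes gave 75 higher and 135 lower and leaving out mast, erythroid and mesenchymal gene barcodes gave 29 higher and 53 lower. Leaving out mast-gene barcodes with depth matching gave 77 higher and 5 lower and the same with 4 UMIs gave 140 higher and 21 lower. Without the library block edgeR called 0 and 0 genes, with 687 at an unadjusted p below 0.05 (397 with depth matching and 304 with mast-gene barcodes also left out). Leaving out 1 library at a time gave 98 to 208 higher genes and 150 to 200 lower. For the comparison with tissue macrophages (490 more positive, 381 more negative), DESeq2 called 266 and 185, depth matching left 130 and 67, matching without mast-gene barcodes 181 and 49, and leaving out 1 library gave 21 to 452 and 95 to 313, lowest without library 1 in both. With depth-matched sides (115 and 10), DESeq2 called 45 higher and 4 lower, no filter on low counts 367 and 67, a mean CPM of 20 64 and 4, edgeR without the library block 0 and 0, and leaving out 1 library 45 to 193 and 2 to 24, the fewest higher genes without library 4. With mast-gene barcodes also left out (77 and 5), DESeq2 called 28 higher and 1 lower, no filter on low counts 195 and 27, a mean CPM of 20 38 and 2, edgeR without the library block 0 and 0, and leaving out 1 library 29 to 114 and 1 to 12, the fewest higher genes without library 4. With 4 or more tdTomato UMIs (140 and 21), DESeq2 called 52 higher and 5 lower, no filter on low counts 318 and 78, a mean CPM of 20 100 and 14, edgeR without the library block 25 and 1, and leaving out 1 library 49 to 204 and 6 to 36, the fewest higher genes without library 4. Without matching this label gave 82 and 25, and without barcodes of 20 or more microglia list UMIs 5 and 1. The labelled shares of 13.1%, 13.5%, 20.04% and 20.9% became 3.18, 3.79, 6.80, 6.93% after thinning and 41.1, 43.6, 47.8, 50.3% at 1 UMI. 

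With Ccr2 at 1 or more, the log2 difference had the opposite sign for Plac8 -0.040. With Ccr2 at 6 or more, the log2 difference had the opposite sign for Plac8 -0.0064. With depth matching, the log2 difference had the opposite sign for C3ar1 0.24, Fcgr4 0.0031, C1qb 0.11, Ifi27l2a 0.060, Ms4a6c 0.018, Ifit3 0.033, Tnfrsf11a 0.018, Apoe 0.32 and Cx3cr1 0.21. With the label called after thinning, the log2 difference had the opposite sign for Pilra 0.058, Maf 0.12, C3ar1 0.23, Fcgr4 0.22, Dab2 0.16, Clec4a1 0.11, C1qb 0.21, Ifi27l2a 0.17, Ube2c -0.12, Ms4a6c 0.059, Ifit3 0.72, Tnfrsf11a 0.13, Apoe 0.34, Actb 0.0037 and Cx3cr1 0.21. Without library 1, the log2 difference had the opposite sign for Plac8 -0.069. Without library 2, the log2 difference had the opposite sign for Plac8 -0.0098. Without library 3, the log2 difference had the opposite sign for Ly6c2 0.14. Without mast, erythroid and mesenchymal gene barcodes, the log2 difference had the opposite sign for Cpa3 -0.24, Cma1 -0.046, Hdc -0.27, Cd63 -0.014 and Ly6c2 0.047. Without mast-gene barcodes, the log2 difference had the opposite sign for Cpa3 -0.30, Cma1 -0.041 and Hdc -0.25. Without mast-gene barcodes and with depth matching, the log2 difference had the opposite sign for Cpa3 -0.16, Hdc -0.19, Ptprcap -0.21, Maf 0.0032, C3ar1 0.23, Fcgr4 0.025, Clec4a1 0.017, C1qb 0.14, Ifi27l2a 0.072, Ms4a6c 0.052, Ifit3 0.070, Apoe 0.35 and Cx3cr1 0.18. With 4 UMIs, matched and without mast-gene barcodes, the log2 difference had the opposite sign for Cpa3 -0.18, Ptprcap -0.55, Pilra 0.24, Maf 0.48, C3ar1 0.58, Fcgr4 0.15, Dab2 0.073, Clec4a1 0.16, C1qb 0.95, Ifi27l2a 0.33, Ms4a6c 0.029, Ifit3 0.25, Plac8 -0.013, Tnfrsf11a 0.26, Apoe 0.99, Cx3cr1 0.64 and Xist 0.092. With no filter on low counts, the log2 difference had the opposite sign for Plac8 -0.0094. In the comparison of 4 or more UMIs, without matching, the log2 difference had the opposite sign for Elane 0.027. With 2 per 10000 UMIs as the label, the log2 difference had the opposite sign for Pilra 0.039, Maf 0.27, C3ar1 0.69, Fcgr4 0.49, Dab2 0.38, Clec4a1 0.37, C1qb 0.76, Ifi27l2a 0.59, Ube2c -0.39, Ms4a6c 0.0097, Ifit3 0.99, Tnfrsf11a 0.23, Apoe 0.98, Cx3cr1 0.80 and Xist 0.13. With 4 UMIs as the label, the log2 difference had the opposite sign for C1qb 0.073, Plac8 -0.20, Apoe 0.11 and Cx3cr1 0.26. With 4 UMIs and depth matching, the log2 difference had the opposite sign for Pilra 0.18, Maf 0.33, C3ar1 0.49, Fcgr4 0.096, Clec4a1 0.029, C1qb 0.70, Ifi27l2a 0.21, Ube2c -0.0004, Ifit3 0.27, Plac8 -0.14, Tnfrsf11a 0.12, Apoe 0.78, Cx3cr1 0.69 and Xist 0.18. Leaving out 1 library at a time, Plac8 ranged from -0.0693 to 0.0678 and Ly6c2 from -0.221 to 0.14. The alternatives that leave out mast, erythroid, mesenchymal or microglia gene barcodes, combine labels with matching or set the label per 10000 UMIs were chosen after seeing the data. The cause was not tested. Without the mast-gene barcodes the mast cell genes lose the barcodes that held them. At the strict label library 1 has 23 labelled barcodes, and 19 once microglia list barcodes are also left out, which limits what these sums can show. Labelled and unlabelled sums were paired within each library by the library block, whose removal is given above. By the labels' replicate numbers no paired analysis was possible because these numbers could not be linked to the 4 libraries.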
